A study of Macaca mulatta with 4 samples.

Results

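Meningeal fibroblasts are the matrix-making cells of the membranes around the brain, and they were looked for here in single-nuclei RNA from the cerebellum of rhesus macaque fetuses. A droplet barcode was taken as a fibroblast nucleus when it held 500 or more genes and at least 1 unique molecular identifier (UMI, a counted RNA molecule) of 3 or more of the genes COL1A2, DCN, ADAMTS12, ALDH1A2, BMP6 and EYA1. By this rule 510 of 32587 nuclei were fibroblasts, and the other 32077 are called the other nuclei. The members were chosen by the measured UMIs of these 6 genes, so the contrast of fibroblasts with the other nuclei is given as a description, without a test.

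The study compared fetuses delivered 5 days after 1 mg of E. coli lipopolysaccharide (LPS) had been injected into the amniotic fluid with control fetuses, and took nuclei from the hemispheres of the cerebellum with part of the vermis. The LPS group held 1 female of 131 days of gestation and 1 male of 133 days, and the Control group held 1 female and 1 male of 130 days. The controls received no intervention, so the injection itself and the endotoxin cannot be told apart. Both LPS fetuses were also older than both controls, so gestational age cannot be told apart from LPS either. Each fetus gave 1 library of nuclei from frozen cerebellum, and n is therefore 2 fetuses per group in every comparison. The gene tests share their estimate of spread across genes. Their p-values and standard errors (SE) therefore do not measure the spread of a single gene between these fetuses alone.

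As background, the meninges hold fibroblasts in the pia, arachnoid and dura. They lay down fibrillar collagens and the basement membrane on which the glial surface of the brain rests. Fibroblasts of the embryonic meninges also make retinoic acid, through the enzyme ALDH1A2, and bone morphogenetic proteins. In the cerebellum the pial surface lies directly on the external granule layer, where granule cell precursors divide.

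The libraries held 34282015 to 61665690 UMIs, and the nuclei had a median of 1882 to 4506 UMIs per library, fewer in both males than in both females. Pairs of libraries shared 16 to 22 barcodes. The free RNA of the library LPS female, measured in barcodes of 100 UMIs or fewer, held 2830 CPM (counts scaled to an equal library total) of TTR, the transthyretin of choroid plexus, against 0 to 134 CPM in the others. A doublet caller marked 17, 37, 18 and 1 of the fibroblast nuclei in Control female, Control male, LPS female and LPS male, the order used for all values below.

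The label was checked on genes that the rule did not use. Of 20 other fibroblast markers, 19 were in the gene list. The fibroblast nuclei had UMIs of a median of 11 of these, and the other nuclei of 2. At least 4 of them were seen in 96.5% of the fibroblast nuclei and in 10.9% of the others. By the number of rule genes, which chose the members, 28143 nuclei had none, and 3655, 279, 55, 79, 111 and 265 had 1 to 6. The 55 nuclei just inside the rule had a median of 7 other fibroblast markers, and the 279 nuclei just outside it had 3. By fetus the median just inside was 4, 9, 5.5 and 6, on 11, 17, 22 and 5 nuclei, so that it was high in Control male and near the level outside the rule in Control female. Both COL1A2 and DCN were missing in 12 members. Sub-clusters that go against the label are named with the sub-clusters.

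The fibroblasts numbered 133 of 9256, 195 of 8621, 149 of 6905 and 33 of 7805 nuclei in the 4 fetuses. Their share was 1.44% in Control female (exact 95% Clopper-Pearson interval 1.20 to 1.70%) and 2.26% in Control male (1.96 to 2.60%). It was 2.16% in LPS female (1.83 to 2.53%) and 0.423% in LPS male (0.291 to 0.593%). These intervals cover counting error only. The LPS male lay below the other 3 fetuses, while the LPS female lay between the controls and within the interval of Control male. The group means were 1.85% ± 0.583 (SD, n = 2) in Control and 1.29% ± 1.23 (SD, n = 2) in LPS, and the groups overlapped. A two-sided exact permutation test gave p = 0.667, where 2 against 2 fetuses allow no p below 0.333. Without the LPS male, the LPS share was higher than the mean of the controls, by 0.22 on the log2 scale.

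Depth was uneven between the libraries, and a nucleus with fewer UMIs shows fewer markers. After each nucleus was thinned to 1000 UMIs, the shares were 1.17, 2.00, 1.59 and 0.266%, in the same order of fetuses. Thinning left out 389, 780, 165 and 1788 shallower nuclei, of which 4, 7, 2 and 1 were fibroblasts. The free RNA of the LPS male was lowest for 4 of the 6 rule genes. It had 2.97 CPM of COL1A2 against 45.1 to 51.3 CPM in the others, and 1.49 CPM of DCN against 18.5 to 36.0 CPM. BMP6, at 20.1 CPM, lay above both females, and EYA1, at 10.4 CPM, was at the level of Control female (10.3 CPM). A set of 204 nuclei with 3 or more endothelial markers made up 0.745, 0.754, 0.666 and 0.307% of nuclei, again lowest in the LPS male. A set of 51 nuclei with 3 or more mural markers made up 0.194, 0.128, 0.174 and 0.128%, and was not lower in the LPS male than in Control male. Whether the piece of cerebellum that was taken held less of the meninges in this fetus was not tested.

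**Figure D1:**
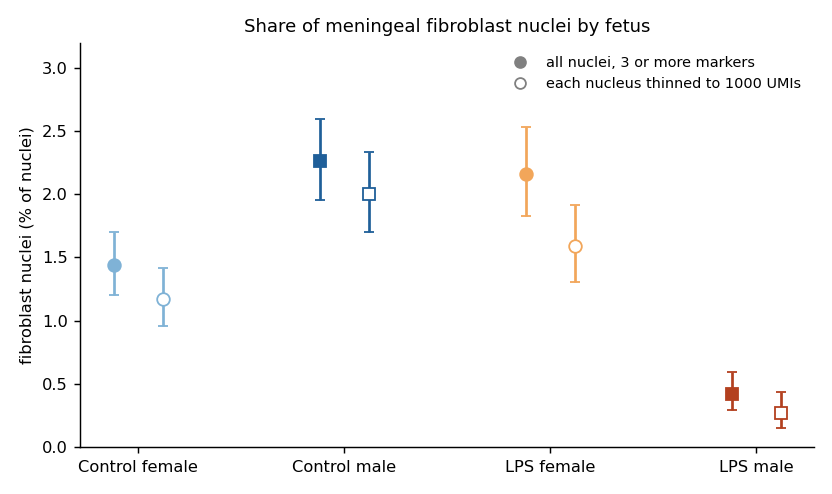
Fibroblast nuclei as a percentage of all nuclei with 500 or more genes in each fetus (vertical axis), with exact 95% intervals as bars. Filled points are all nuclei and open points are nuclei thinned to 1000 UMIs. The LPS male, at 0.423%, lies below the other 3 fetuses in both.

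Levels are given as CPM of the UMIs summed over the fibroblast nuclei of a fetus, and they are not corrected for gene length, so genes are not compared with each other by level. The rule genes served to choose the nuclei. COL1A2, a chain of type I collagen, was at 1050.4, 1424, 914 and 864 CPM in the fibroblasts and at 1.55 to 7.64 CPM in the other nuclei. DCN, the small proteoglycan decorin that binds collagen fibrils, was at 907, 633, 938 and 474 CPM. ALDH1A2, which makes retinoic acid, was at 1025, 1344, 987 and 1381 CPM, and BMP6, a secreted bone morphogenetic protein, at 865, 1706, 1011 and 914 CPM. The fibroblasts held 74.8 to 89.0% of the COL1A2 UMIs in the nuclei of each library. In the LPS male, with 33 fibroblast nuclei, they held 25.2% of the BMP6 UMIs and 25.3% of the EYA1 UMIs.

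With 1 CPM added to both sums, 771 of the 10223 genes with 10 CPM or more on average in either sum were over 2-fold higher in the fibroblasts of all 4 fetuses, which is 7.54%. Over 2-fold lower in all 4 were 599, or 5.86%. The 20 genes with the highest smallest ratio hold all 6 rule genes and 14 that the rule did not use. Among these, COL15A1, a collagen of the basement membrane zone, was at 612, 579, 422 and 673 CPM against 2.03 to 3.77 CPM in the other nuclei, a ratio of 122 to 179.9. TBX18, a T-box transcription factor known from mural and meningeal cells, was 101- to 184-fold higher, and its relative TBX15 54.1- to 112-fold. COL3A1 and COL1A1, chains of the fibrillar collagens III and I, were 76.0- to 122-fold and 45.6- to 78.1-fold higher. SLC22A2, an organic cation transporter, was 90.2- to 122-fold higher, and SLC7A11, the cystine-glutamate exchanger, 71.0- to 139-fold. ALDH1A3, a second enzyme that makes retinoic acid, was 81.6- to 208-fold higher. C7, a component of the complement attack complex, was 56.1- to 229-fold higher, and FAP, a surface protease of activated fibroblasts, 59.5- to 132-fold. The other 4 were WDR86, EGFLAM, ITGA8 and ITIH5. Against the 204 nuclei of the endothelial set, EGFLAM and ITIH5 had lowest log2 ratios of 0.80 and 0.49, so both genes were also high there.

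**Figure D2:**
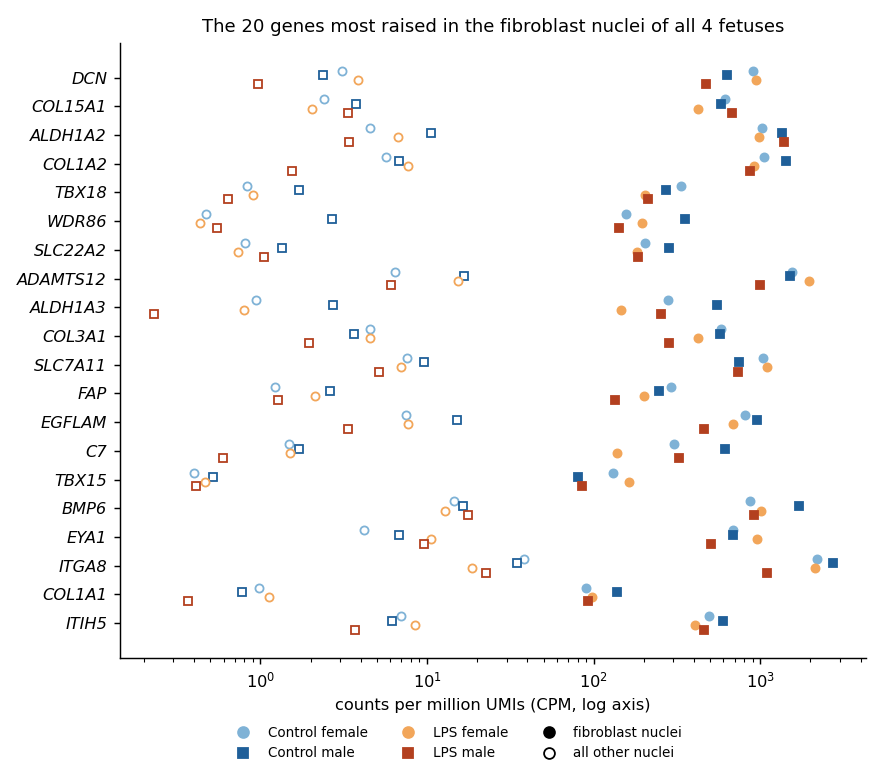
CPM (log axis) of the 20 genes most raised in the fibroblast nuclei (filled) against all other nuclei (open), 1 point per fetus. In every gene the filled points of the 4 fetuses lie to the right of the open ones, with ratios of at least 43.3-fold.

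Many genes of the extracellular matrix were raised. Of 22 basement membrane genes, 15 were over 2-fold higher in the fibroblasts of all 4 fetuses, against 7.54% of the genes above, and like them were measured in the nuclei the rule had chosen. Their summed level was 8182 to 10271 CPM in the fibroblasts and 1118 to 1537 CPM in the other nuclei. LAMA2, the laminin chain of basement membranes around muscle and vessels, was at 4044, 3353, 3331 and 3003 CPM, a ratio of 6.09 to 9.17. The same was true of 6 of 10 fibrillar collagens (with COL1A2, which the choice of nuclei fixed), 9 of 19 other interstitial collagens and 5 of 9 small leucine-rich proteoglycans (with DCN, fixed likewise), with OGN (osteoglycin) at 509.8, 468, 610.4 and 517 CPM. COL12A1, a collagen that sits on fibril surfaces, was at 1184, 1734, 943 and 878 CPM. Of 15 collagen-processing enzymes 2 were raised in this way, and of 12 metalloproteinases and their inhibitors 3, counts too small to set apart from the 7.54% of all genes.

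Signalling genes were raised in part, and their counts, over all list genes in the file, stand beside the 7.54% of the genes above. Of 23 genes of the retinoic acid pathway, 9 were over 2-fold higher in all 4 fetuses, the rule gene ALDH1A2 among them. CYP1B1, which can also form retinoic acid, was at 253, 87.7, 128 and 106 CPM (26.8- to 50.2-fold), and the receptor RARB was at 237, 202, 349.9 and 99.1 CPM (5.72- to 9.69-fold). Of 31 genes of the BMP pathway, 5 were higher, the rule gene BMP6 among them, and nothing is read from so small a count. The ligand BMP5 was at 863, 425, 628 and 446 CPM, 7.77- to 62.9-fold above the other nuclei, while the receptor BMPR2, at 609 to 754 CPM, was 0.915 to 1.17 times their level. Of 14 genes of the TGF-beta pathway 4 were higher, among them the co-receptor TGFBR3 at 644 to 813 CPM (25.2- to 37.2-fold). LEF1, a transcription factor of the Wnt pathway, was 9.03- to 32.8-fold higher, and RSPO2, a secreted enhancer of Wnt signalling, 11.1- to 24.1-fold.

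Genes named for layers of the meninges were also raised. Of 13 pial and perivascular genes, 9 were over 2-fold higher in all 4 fetuses, and of 28 genes of the arachnoid barrier and its transport, 13. The share among all genes described above was 7.54%. PTGDS, the prostaglandin D synthase of the arachnoid, was at 306, 402, 629 and 928 CPM against 15.5 to 39.3 CPM in the other nuclei. No gene of the lists for mural cells and microglia met this measure, while 4 of 12 endothelial markers did. Granule cell markers summed to 4451 to 7372 CPM in the fibroblasts and to 12553 to 18644 CPM in the other nuclei, so neuronal RNA was present in the fibroblast sums. Astroglial markers summed to 2217 to 3674 CPM in the fibroblasts and 705 to 904 CPM in the other nuclei, most of it SLC1A3, a glutamate transporter, at 1951 to 3235 CPM in the fibroblasts.

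Sub-clusters of the 510 nuclei were then made to see how the fibroblasts vary among themselves. They are named by their leading genes, and their sizes are a description, because the same genes defined them. The group led by C7, GRM8 and THSD7B held 58, 78, 42 and 15 nuclei, and the group led by EDN3 (endothelin 3), HAS2 (hyaluronan synthase) and SUSD4 held 42, 38, 31 and 9. These 2 groups made up 193 and 120 of the 510 nuclei. Pial and perivascular genes summed to 2955 CPM in the first and 4063 CPM in the second. COL15A1, one of them, was at 704 and 1087 CPM.

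The group led by ATP13A5, PLAAT1, SLC13A3 and SLCO1A2 held 5, 38, 28 and 0 nuclei. Arachnoid barrier and transport genes summed to 7998 CPM in it, against 4137 and 2954 CPM in the first 2 groups, and its pial sum was 1436 CPM. A group of 18 nuclei, 3, 9, 5 and 1 by fetus, was led by IQGAP3, DIAPH3 and CDC45, genes of cell division and DNA replication. All 20 cell cycle genes of the list had UMIs in it, with a sum of 4438 CPM against 206 to 695 CPM in the other groups. The doublet caller marked 8 of these 18 nuclei.

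Another 2 groups carried the genes of other cells. RBFOX3, a neuronal splicing factor, led 79 nuclei (21, 28, 24 and 6), of which 51 were called doublets, and their granule cell markers summed to 13275 CPM. GFAP, the intermediate filament of astrocytes, led 14 nuclei (4, 4, 5 and 1), of which 9 were called doublets. Fibroblast markers outside the rule summed to 5573 and 5906 CPM in these groups, and to 11254 to 15826 CPM in the 4 groups described before. Tests were therefore repeated without them.

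At a finer resolution of 0.8, which gave 10 groups, nuclei of the same kind separated by fetus. The group led by ATP13A5 then held 3, 1, 25 and 0 nuclei, and a group led by NR4A2 and FOSL2, genes of the immediate early response, held 28 nuclei of Control male and none of the others. The group led by EDN3 held 40, 36, 1 and 9 nuclei, and one led by FERMT1 and RPAP1 held 2, 0, 30 and 1.

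The last group was 15 nuclei led by SLC47A1, NELL1, BMPER, SEMA3C and C8orf34, of which 14 came from the LPS female, 1 from the LPS male and none from either control. SLC47A1 is an extruder of organic cations, BMPER a secreted regulator of bone morphogenetic proteins and SEMA3C a secreted guidance cue. SLC47A1 was at 3886 CPM here and at 7.14 and 24.8 CPM in the 2 largest groups. Among the rule genes, ADAMTS12 (2039 CPM) and EYA1 (1168 CPM) were present, but DCN was at 87.1 CPM against 1245 CPM in the C7 group, and ALDH1A2 at 34.9 against 1526 CPM. These nuclei had a median of 3 rule genes, the least the rule allows. FOXP1, a forkhead transcription factor, was at 13226 CPM and SLC4A4, a sodium bicarbonate cotransporter, at 7336 CPM. Arachnoid barrier and transport genes, a list that holds SLC47A1 and SLC4A4, summed to 18471 CPM, and fibroblast markers outside the rule to 5890 CPM. The data go against the name fibroblast here more than in the 4 groups described first, and no other name is given. TTR was at 338 CPM in those from the LPS female, against 306 CPM in the other nuclei of that library. None was called a doublet. The 2 controls together held 0 such nuclei among 328 fibroblasts, a share of up to 0.915% by counting error over the pooled nuclei. With 2 control fetuses this sets no bound on how often control fetuses hold such nuclei. Among the fibroblasts, 0, 0, 16 and 0 nuclei had UMIs of 5 or more of the 10 leading genes. The 1 nucleus of the LPS male in the group, with 1219 UMIs, was thus not among them. Outside the fibroblasts, 12, 2, 6 and 6 nuclei met this measure. Those were deeper, with medians of 11206, 27607.5, 5876.5 and 18135.5 UMIs against 4000.5 UMIs in the 16, and deeper nuclei show more genes.

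**Figure D3:**
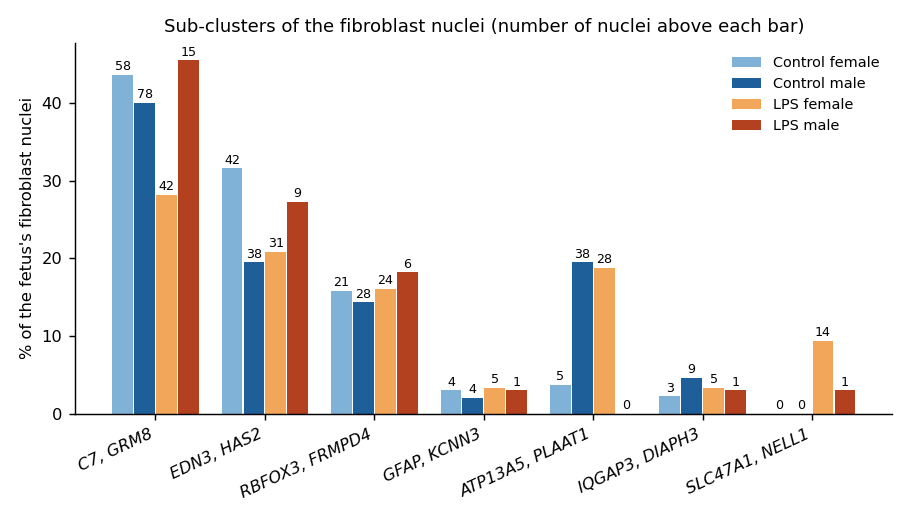
Percentage of each fetus's fibroblast nuclei (vertical axis) in each sub-cluster, named by its 2 leading genes, with the number of nuclei above the bar. The SLC47A1 group holds 14 nuclei of the LPS female and 1 of the LPS male, and the ATP13A5 group none of the LPS male.

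The effect of LPS was asked next, with the UMIs of all fibroblast nuclei of a fetus summed. The sums held 715930, 741037, 748683 and 141204 UMIs, so the LPS male was the least precise. None of 9010 genes tested was called by the quasi-likelihood test of edgeR at an adjusted p below 0.1 and a log2 fold change beyond 0.25 (0%), while 127 had an unadjusted p below 0.05, 85 of them higher (0.943%) and 42 lower (0.466%). DESeq2 called 5 genes (0.0555%), all higher in LPS, which were NELL1, BMPER, TRPM3, NR3C2 and C8orf34. In the other nuclei edgeR called 0 of 16055 genes. In data simulated at this size, edgeR found 1.52% of the genes given a log2 change of 1, 56.7% of those given 2 and 92.5% of those given 4. The simulation gave all genes 1 dispersion, which real genes do not share. Its percentages therefore do not tell how many large changes the real test would find. In the real test SEMA3C, with a log2 fold change of 3.92, was not called by edgeR. The 0 calls thus do not exclude large changes.

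The 10 genes with the smallest p were all higher in both LPS fetuses than in both controls, and none passed the adjustment (adjusted p = 1.00 in edgeR for each). Among all tested genes, 12.5% had both LPS fetuses above both controls and 13.2% below, and these 10 were taken from that end, so their lack of overlap is no result about them. The test leaves out genes of low counts. C8orf34, SEMA3C and SLC47A1, at 2.70 to 11.2 CPM in the controls, entered it only through their LPS values. The 10 genes were also measured without the 15 nuclei of the SLC47A1 group, a step chosen after seeing the data.

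NR3C2 and ABI3BP were higher in both LPS fetuses with and without that group. NR3C2, the mineralocorticoid receptor, was at 69.8 and 47.2 CPM in the controls and 271 and 234 CPM in the LPS fetuses (50, 35, 203 and 33 UMIs), a log2 fold change of 2.11 (SE 0.36). Both LPS values lay above both controls. Free RNA held 95.1, 88.8, 74.6 and 118 CPM of NR3C2, above the fibroblasts of both controls and below those of both LPS fetuses. The part of free RNA in its levels was not tested. Without the SLC47A1 group the LPS values were 144 and 207 CPM, and the log2 fold change was 1.53. A large part of the NR3C2 level of the LPS female, 271 CPM with the group, thus lay in 14 nuclei. ABI3BP, an extracellular matrix protein that binds collagen, was at 75.4, 138, 382 and 389.5 CPM (54, 102, 286 and 55 UMIs), with a log2 fold change of 1.85 (SE 0.37) and of 1.91 without that group. With either LPS fetus left out, edgeR called both genes, NR3C2 at an adjusted p of 0.0951 without the LPS female and 0.000823 without the LPS male, and ABI3BP at 0.0951 and 0.00594. The lone LPS fetus is then assumed to vary like the controls. With either control left out, neither gene was called (adjusted p of 0.996 to 1.00 in edgeR), as with all 4 fetuses.

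Within the C7 group alone, ABI3BP was at 147 and 185 CPM in the controls and 368 and 895 CPM in the LPS fetuses. NR3C2 was there at 20.5 and 40.3 CPM against 63.1 and 135 CPM, on 6, 12, 12 and 8 UMIs. Both genes were higher in the LPS fetuses within the largest group, on few UMIs. These nuclei are part of the sums by which the 2 genes were picked, so their order here is no separate support. In the EDN3 group NR3C2 was at 13.2 and 34.6 CPM against 57.8 and 95.1 CPM, on 2, 3, 6 and 2 UMIs, while ABI3BP had 1, 8, 4 and 0 UMIs and no such order. The finer resolution put nearly all nuclei of the LPS female in other groups than EDN3, so these values compare nuclei of different finer groups. ABI3BP was itself among the leading genes of the finer ATP13A5 group, at 1383 CPM against 147 CPM in all other fibroblasts, and 25 of the 29 nuclei of that group came from the LPS female.

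In 6 other genes most of the level of the LPS female lay in the SLC47A1 group. NELL1, a secreted protein of bone and nerve development, was at 11.2, 29.7, 451 and 85.0 CPM. Without that group it was at 75.1 and 21.4 CPM in the LPS fetuses, so that the groups overlapped. SLC47A1 went from 321 to 26.0 CPM in the LPS female, and BMPER from 441 to 95.3 CPM. IGFBP5, which binds insulin-like growth factors, was at 105, 104, 284 and 333 CPM, and without the group at 107 CPM in the LPS female. Its log2 fold change went from 1.55 to 0.56. C8orf34 and SEMA3C were at 2.7 to 128 CPM over the 4 fetuses, with 2 to 8 UMIs in each control. Of these 6 genes, all but NELL1 lay above both controls in both LPS fetuses without the group, but they had been picked from that end. With the group included, 12.5% of all genes tested had this order. IGFBP5 of the LPS female was then at 107 CPM against 105 CPM in Control female. SLC47A1 and SEMA3C of the LPS male rested on 3 UMIs each, counted with the group. No lasting effect is read from this order. TRPM3, a calcium channel, was at 250.0, 283, 1174 and 673 CPM, and 588 of its 879 UMIs in the LPS female lay in the ATP13A5 group. In the C7 group it was at 113, 289, 121 and 557 CPM, higher in both males. Free RNA of the LPS male held 1176 CPM of TRPM3, 302 CPM of BMPER and 70.6 CPM of C8orf34, more than any other library. Its fibroblasts held less, at 673, 99.1 and 56.7 CPM. In both controls, too, these genes were higher in the free RNA than in the fibroblasts. The part of free RNA in their levels was not tested.

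**Figure D4:**
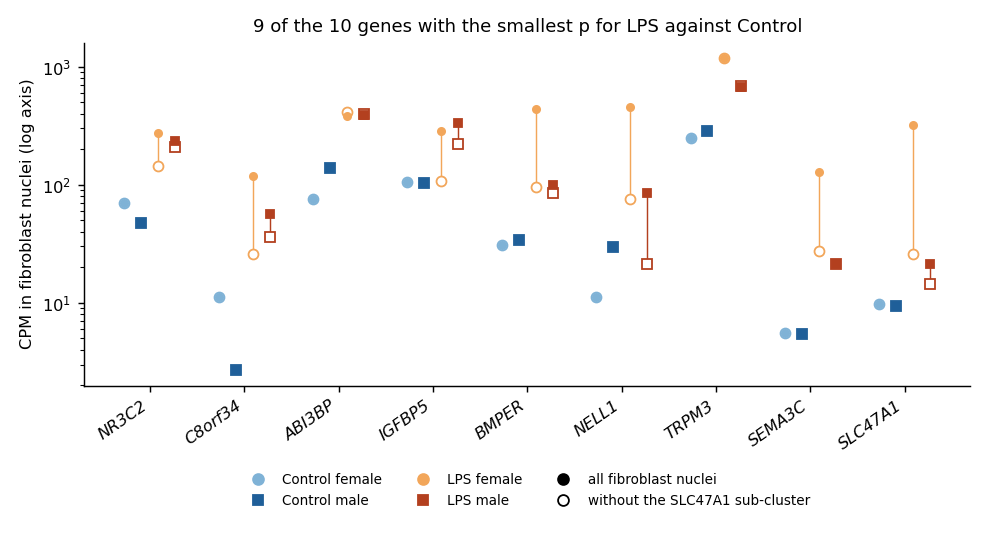
CPM (log axis) in the fibroblast nuclei of each fetus for 9 of the 10 genes with the smallest p, with all nuclei (filled) and without the 15 nuclei of the SLC47A1 sub-cluster (open). ABI3BP stays at 413 and 393 CPM in the LPS fetuses without them, while SLC47A1 of the LPS female drops from 321 to 26.0 CPM.

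The gene lists were read by their counts, since edgeR called no gene. The median log2 fold change over all 9010 genes was 0.00. Basement membrane genes had a median of -0.39, and the log2 fold change was below 0 in each of the 18 tested, from -1.25 to -0.08, although 1 of 18 had an unadjusted p below 0.05. Both LPS fetuses were below both controls in 9 of the 18, against 13.2% of all genes, and 12 were lower within both sexes, against 25.6% of all genes. COL18A1, whose end fragment is endostatin, was at 219, 568, 147 and 191 CPM. COL4A1 and COL4A2, the main chains of collagen IV, were at 197, 376, 187 and 163 CPM and at 398, 575, 309 and 339.9 CPM. LAMA1, a laminin chain of the pial surface, was at 515, 443, 326 and 375 CPM. LAMA2 was at 4044, 3353, 3331 and 3003 CPM and LAMA4 at 1193, 1067, 948 and 843 CPM. COL4A5, COL15A1 and NID1 overlapped between the groups. The median lay between -0.47 and -0.27 in the 11 other settings tried. The list summed to 13100 CPM in the C7 group, 11883 CPM in the EDN3 group and 7956 CPM in the ATP13A5 group. The C7 group made up 43.6, 40.0, 28.2 and 45.5% of the fibroblasts of the fetuses, and the ATP13A5 group 3.76, 19.5, 18.8 and 0%. The part of this make-up in the lower values was not tested. The number of genes below 0 was lowest with 4 or more rule genes, at 12 of 17. It was 14 of 18 without Control male and 14 of 19 without the LPS female. No gene of the list passed the adjusted test. The list of CXCL12 and migration cues went the other way, with a median of 0.43 and 8 of 9 genes above 0. Its median was 0.23 to 1.15 in the other settings. Within both sexes 3 of the 9 were higher, against 24.0% of all genes. The list was led in level by ROBO1, ROBO2, RELN and SLIT2. Of its 14 genes in the file, 1 was over 2-fold higher in the fibroblasts of all 4 fetuses. Its sum was 5078 to 9212 CPM in the fibroblasts and 5500 to 9690 CPM in the other nuclei, higher there in each fetus. Its largest change, 3.92, was that of SEMA3C, a leading gene of the SLC47A1 group. No rise of fibroblast cues is read from this list. Markers of other cells differed among their lists in the same sums. Granule cell markers had a median of 0.41, with 10 of 11 above 0, but of 0.02 without Control male (6 of 11), 0.21 without LPS male (6 of 11) and 0.93 without Control female. Oligodendrocyte markers had one of 0.65, with 4 of 4 above 0, and of 0.32 without LPS male and 1.10 without Control female. The median was 0.05 for 6 endothelial markers, 0.08 for 3 Schwann cell and melanocyte markers and -0.02 for 7 astroglial markers, and the only mural marker tested had -0.30. These too rested on single fetuses, since without LPS female the medians of the first 3 lists were -1.53, -0.54 and -0.30, and without Control male -0.80, -0.23 and -0.51. No microglial gene could be tested. Without the 2 groups rich in doublets the granule cell and oligodendrocyte medians were 0.25 (5 of 9 above 0) and 0.26 (2 of 4), and that of the basement membrane genes was -0.27 (15 of 16 below 0). Their part in the values of the fibroblast genes was not tested further.

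**Figure D5:**
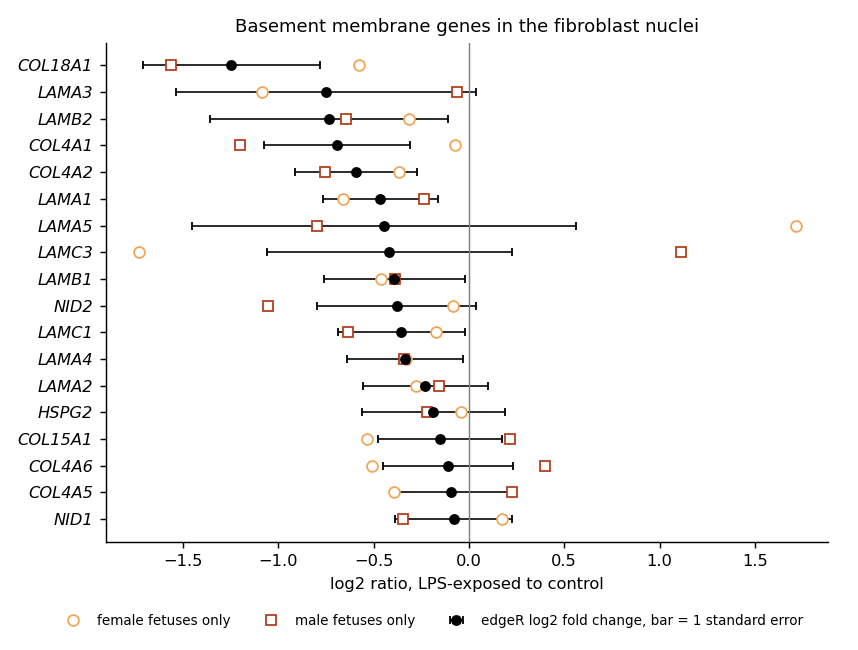
Log2 ratio of LPS-exposed to control fetuses for the 18 basement membrane genes tested in the fibroblasts. Filled points with bars are edgeR fold changes with 1 standard error, and open points are the ratio in females (circles) and in males (squares) with 1 CPM added. All 18 filled points lie below 0, while the bars of several cross it, and 6 genes, LAMA5 and LAMC3 among them, point opposite ways in the sexes.

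The median was -0.25 for the 8 fibrillar collagens tested, -0.33 for 14 other interstitial collagens, -0.48 for 5 metalloproteinases and inhibitors and 0.05 for 6 small leucine-rich proteoglycans. Leaving out 1 fetus moved them. Without Control male they were -0.07, -0.11, -0.15 and -0.31, and without LPS male -0.30, -0.59, -0.04 and 0.33. Without Control female they were -0.54, -0.44, -0.16 and 0.40, and without LPS female -0.34, -0.36, -0.60 and -0.50. No direction is read from these lists. COL6A3, a chain of collagen VI, was at 298, 857, 246 and 234 CPM, where Control male stood apart. DCN, a rule gene whose level among the members depends on the choice of nuclei, was at 907, 633, 938 and 474 CPM, higher in both females. Of the 19 other fibroblast markers, 8 had both LPS fetuses below both controls and none above, against 13.2 and 12.5% of all genes, with a median of -0.25 (-0.15 without Control male), beside the granule cell and oligodendrocyte medians above 0 given before.

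Among the retinoic acid genes, ALDH1A2 had a log2 fold change of -0.02 (SE 0.33), with values of the groups that overlapped. ALDH1A3 was at 278, 548, 146 and 255 CPM, lower in both LPS fetuses, with a log2 fold change of -1.10 (SE 0.43, unadjusted p = 0.0317 and adjusted p = 1.00 in edgeR). The median over 14 genes was -0.16, and 0.16 without Control male. The BMP list had a median of 0.13 over 17 genes, and of -0.45 without LPS female, with BMP6 at -0.42 (SE 0.38) and BMP5 at -0.25 (SE 0.41).

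Of 57 inflammatory and innate response genes in the file, 15 had enough UMIs to be tested, as had 9010 of all 30807 genes listed, a share close to that of the list. In the list 11 genes had no UMI in any fibroblast nucleus, among them LIF, CCL7, CXCL2 and SOCS3. The list summed to 866, 1061, 962 and 807 CPM, with the groups overlapping, and the median of the 15 was -0.18. It was 0.01 without Control male, 0.16 after thinning to 1500 UMIs and -0.45 without LPS female. STAT3, which carries cytokine signals, was at 110.3, 170.0, 127 and 163 CPM, and NFKB1, a subunit of NF-kappaB, at 62.9, 192, 89.5 and 77.9 CPM. IL6 had 1 UMI in all and CCL2 2. A difference in the genes of the list that were not tested was not detectable at this depth.

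The arachnoid barrier and transport genes had a median of 0.17 over 20 tested, with both LPS fetuses above both controls in 6, against 12.5% of all genes. The median was -0.36 without LPS female and 0.70 without LPS male. PTGDS had a log2 fold change of 1.12 (SE 0.33, unadjusted p = 0.00936 and adjusted p = 1.00 in edgeR). Its free RNA was at 334 CPM in the LPS female against 70.8 to 107 CPM in the other libraries, and the part of free RNA in its difference was not tested. Among 9 glucocorticoid, hypoxia and stress genes the median was 0.35, with 0.08 without LPS female and 0.79 without LPS male. NR3C1, the glucocorticoid receptor, was at 652, 603, 776 and 687 CPM, and SGK1, a kinase induced by corticosteroids, at 78.2, 109, 96.2 and 120.4 CPM.

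Whether the LPS effect in the fibroblasts differed from that in the other nuclei was tested in 1 model over both sums of each fetus. The SEs and p-values of this model lean on a spread shared across genes. For SLC47A1 the unadjusted p of edgeR was 5.28e-20 here and 0.00204 for LPS against Control, on the same fetuses. Small p-values here are therefore no measure of how alike the fetuses of a group were. Of 15368 genes, edgeR called 37 (0.241%), 24 with a higher (0.156%) and 13 with a lower effect (0.0846%) in the fibroblasts, while DESeq2 called 4 (0.026%), all higher and all among them. Without the SLC47A1 group 16 of the 37 were still called, 8 in each direction. Without the 2 groups rich in doublets 32 genes were called, 31 higher and 1 lower, of which 19 were among the 37. The difference was 4.08 for NELL1 (SE 0.38), 4.40 for SLC47A1 (SE 0.48), 2.67 for BMPER (SE 0.35), 3.91 for C8orf34 (SE 0.52) and 2.20 for ABI3BP (SE 0.33) on the log2 scale. DESeq2 did not call BMPER, C8orf34 and ABI3BP. Without the SLC47A1 group the difference was 1.81 for NELL1, 1.38 for SLC47A1, 1.14 for BMPER and 2.21 for C8orf34, of which only NELL1 was called, and 2.27 for ABI3BP. ABI3BP (adjusted p = 1.02e-07 in edgeR) was at 6.18 to 11.7 CPM in the other nuclei, where its log2 fold change was -0.28 (SE 0.46). NR3C2 was also called, with a difference of 2.01 (SE 0.33, adjusted p = 3.05e-06 in edgeR) and 76.9 to 112 CPM in the other nuclei. ABI3BP was not called without Control female, where the difference was 1.52, and SLC47A1 (2.11), BMPER (0.87) and C8orf34 (1.97) were not called without LPS female.

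On the lower side were SIDT1 (difference -1.42, SE 0.29), SH3BP5 (-1.66, SE 0.34), FBLN1 (-1.32, SE 0.31), C9orf72 (-1.57, SE 0.37) and TMEM132C (-1.18, SE 0.29). FBLN1, the matrix glycoprotein fibulin 1, was at 377, 430.5, 258 and 184 CPM in the fibroblasts, lower in both LPS fetuses, and at 14.1, 16.8, 30.7 and 10.5 CPM in the other nuclei. Its free RNA was at 209 CPM in the LPS female, where the other nuclei were highest, against 9.66 to 56.1 CPM in the other libraries, and the part of free RNA in the difference was not tested. TMEM132C, a membrane protein, was at 2711, 2486, 1521 and 2033 CPM, and SIDT1 at 872, 829.9, 411 and 715 CPM. Their levels in the other nuclei were highest in the LPS male, at 533 and 184 CPM. SH3BP5 and C9orf72 rested on Control male, at 537 and 296 CPM against 42.7 to 103 CPM in the other fetuses, and in it on the ATP13A5 group, with 171 of 398 and 94 of 219 UMIs. DESeq2 called none of these 5. Without the groups rich in doublets only SH3BP5 was called, and the differences of the other 4 were -1.42 for SIDT1, -1.21 for FBLN1, -1.59 for C9orf72 and -1.20 for TMEM132C. With 4 or more rule genes FBLN1 (-1.17) and C9orf72 (-1.27) were not called. Each of the 5 genes lost its call without 1 or more fetuses. The difference was -0.67 for SIDT1 and -0.57 for TMEM132C without LPS male, -0.47 for TMEM132C without Control female, and -0.76 for FBLN1 and -0.93 for C9orf72 without LPS female. Without Control male it was -1.22 for SIDT1, -0.30 for SH3BP5, -1.22 for FBLN1 and -0.49 for C9orf72. FBLN1 was also lost without Control female (-1.34). COL18A1 was called too, with a difference of -1.26 (SE 0.32, adjusted p = 0.039 in edgeR). Beyond that test it was called with no filter on low counts and without LPS female, and in none of the other 7 settings, DESeq2 and the removal of either kind of sub-cluster included.

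The content of the nuclei was compared last. Fibroblast nuclei had a median of 4649, 3393, 4228 and 3510 UMIs and of 2409, 1886, 2171 and 2030 genes. The log2 ratio of LPS to Control was -0.06 for UMIs and -0.03 for genes, with p = 1.00 in two-sided exact permutation tests (n = 2 fetuses per group, smallest possible p 0.333). The groups overlapped in both measures, and the ratio of UMIs ran from -0.26 to 0.19 when 1 fetus was left out, so no likeness of the groups can be read from it.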

How the data were processed

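The authors isolated nuclei from frozen cerebellum, prepared 10x Genomics libraries and, by their protocol, mapped reads to Mmul_8.0.1 with Cell Ranger 5.0, counting introns as well. The matrices themselves carry a header from Cell Ranger 4. The deposited values are UMI counts per gene and barcode for every barcode, unfiltered, without the authors' later SoupX correction. Members and gene lists were chosen with earlier results of these data known.

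Here 578 symbols in 32 lists were used, 533 of them in the file. Libraries are named by the sex in their labels. UMI counts were summed per fetus and tested with edgeR 4.0.16 in R 4.3.3 (filterByExpr, TMM, Benjamini-Hochberg), with DESeq2 1.42.0 as the other tool. Called means an adjusted p below 0.1 and a log2 fold change beyond 0.25. The study used the same numbers, but its log fold change is from another tool and its base is not stated. Fetuses are the replicates. Doublets were called with Scrublet in scanpy 1.11.5 and kept in the main tests. In LPS male its automatic limit marked 0.0128%, and the median limit of the other libraries was used. Sub-clusters came from 2000 variable genes, 20 components and Leiden at a resolution of 0.5, after centring by library. Named were the rule genes, the 20 genes most raised, up to 4 genes of each list with the highest level and any called, the 10 genes with the smallest p for LPS against Control, 5 per direction in the interaction and 5 leading genes per sub-cluster, and a few more were chosen after their values were seen. Of the 10 genes, 1 is not reported here. The fibroblast and other sums of a fetus share a library, which was a block in the test of the difference. The alternatives are given in the closing section. The gene test was tested on simulated data of 9010 genes with 1 dispersion for all, where it made 7 false calls. The main test of LPS against Control had no block. Sex was a block only in an alternative, since each group held a female and a male. Deviations of same-sex fetuses from their group means correlated at 0.40, a value that 2 pairs must share.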

Additional observations from a re-analysis of the deposited data

Results flagged for a closer look

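The share of fibroblast nuclei moved in opposite directions with LPS in the sexes. It was higher in LPS female than in Control female, by 0.59 on the log2 scale, and lower in LPS male than in Control male (-2.42). With 1 fetus per sex and group this difference was not tested.

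The LPS effect differed between the fibroblasts and the other nuclei in the test of the difference for 5 named genes with a higher effect in the fibroblasts and 5 with a lower one. The differences on the log2 scale were 4.08 for NELL1, 4.40 for SLC47A1, 2.67 for BMPER, 3.91 for C8orf34 and 2.20 for ABI3BP, and -1.42 for SIDT1, -1.66 for SH3BP5, -1.32 for FBLN1, -1.57 for C9orf72 and -1.18 for TMEM132C. Without the SLC47A1 group NELL1, ABI3BP and the 5 genes of the lower side were still called. The difference of NELL1 was then 1.81, and that of ABI3BP 2.27. C8orf34 (2.21), SLC47A1 (1.38) and BMPER (1.14) were not called. Without the 2 groups rich in doublets the 5 genes of the higher side were called, and of the lower side SH3BP5 alone. DESeq2 called NELL1 and SLC47A1 and none of the other 8.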

How the results depend on the processing

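The count of genes called for LPS against Control was 0 in the main test, 5 by DESeq2 and 30 of 16561 with no filter on low counts, and it ranged from 0 to 78 when each fetus was left out (21 without LPS female, 78 without LPS male, and 0 without either control). With sex as a replicate block it was 0, with 263 genes at an unadjusted p below 0.05 and a lowest adjusted p of 0.102. It was 0 under the other 9 alternatives. With 1 LPS fetus left out, the LPS side is of a single sex and the controls are of both. LPS and sex cannot be told apart in those counts. The number of genes whose LPS effect differed between fibroblasts and other nuclei was 37, and it was 4 by DESeq2, 19 with 4 or more rule genes, 16 without the SLC47A1 group, 32 without the groups rich in doublets (31 higher and 1 lower, against 24 and 13) and 17 to 74 when each fetus was left out (47 without Control female, 17 without Control male, 74 without LPS female and 70 without LPS male). Of the 37, 12 were called without LPS female and 14 without Control male. The 2 steps that leave out sub-clusters were chosen after seeing the data. The log2 ratio of the share was -0.52, ranged from -2.13 to 0.22 when each fetus was left out and was positive without LPS male (0.22). The log2 ratio of median UMIs (-0.06) became 0.19 without Control female and 0.07 without LPS male, within -0.26 to 0.19, and that of median genes (-0.03) became 0.16 and 0.02, within -0.20 to 0.16. Against the endothelial set 80 genes were over 8-fold higher in all fetuses, against 128 for all other nuclei. Of the 10 genes with the smallest p for LPS against Control and the 10 of the difference, none changed direction in an alternative that tested it. For LPS against Control, SEMA3C was tested in 12 and SLC47A1 in 14 of 17 settings, the main one included. The alternatives reuse the counts by which these genes were picked, so a kept direction is no separate support. Among the rule genes the number above 0 went from 1 of 6 to 3 of 6 without either control, without LPS male and without the groups rich in doublets. The levels of these genes depend on the choice of nuclei, so nothing is read from the counts. The LPS male had the fewest fibroblast nuclei, 33, while their median of 3510 UMIs was above that of Control male (3393).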
